A study of Drosophila melanogaster with 9 samples.

Results

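Genes of the piRNA pathway were followed through the 3 regions of the Drosophila testis that hold mitotic, meiotic and post-meiotic germ cells. The 10 genes are piwi, aub, AGO3, vas, spn-E, krimp, mael, armi, zuc and squ. They were chosen by name, with earlier results of these data known. A gene was read from the probe set to which the array annotation gives its symbol alone, the brightest by the mean of the 9 arrays where there were several. Each of the 10 had 1 such probe set, so that they make up 10 of the 11982 genes named in this way and 10 of the 18769 probe sets tested. RNA came from wild-type flies of the TEMPE T strain, from unmated males aged 6 to 10 days, with 250 to 500 testes per replicate and seminal vesicles removed. The apical region was taken as mitotic, the proximal (middle) region as meiotic and the distal region as post-meiotic, with 3 biological replicates of each, all untreated and of the same genotype. A region is enriched for a phase and is not a pure population, since it also holds neighbouring germ cells and somatic cells. The values are log2 hybridization intensities from Affymetrix Drosophila Genome 2.0 arrays. They allow a gene to be compared between regions but not one gene's level with another's.

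PIWI-interacting RNAs (piRNAs) are small RNAs that guide Argonaute proteins of the PIWI clade to transposon transcripts in the gonads of animals. In flies, long precursors are transcribed from clusters of transposon remnants and cut at the outer membrane of mitochondria. They are also amplified by reciprocal slicing in the nuage, a perinuclear granule of germ cells. In the fly testis the pathway is also known for silencing the Stellate repeats of the X chromosome through Suppressor of Stellate piRNAs from the Y chromosome.

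Values of the arrays of a region correlated with r between 0.993 and 0.998 across probe sets. The 3 measured spermatogonial markers of 5 listed had a summed intensity of 3523 to 3976 on mitotic, 2095 to 2149 on meiotic and 1179 to 1425 on post-meiotic arrays. The 9 spermatocyte markers summed to 11672 to 12150, 18853 to 19539 and 8444 to 10212 in the same order of regions. The 7 spermatid markers summed to 6951 to 7727, 17590 to 18474 and 19035 to 19592. By summed intensity each list was highest in its own region, but all 3 lists gave signal in every region and single markers were divided. Of the spermatocyte markers, 3 were higher and 3 lower in meiosis than in mitosis. Of the spermatid markers, 2 were higher and 4 lower in post-meiosis than in meiosis, with a median change of -0.36, although all 7 were higher in meiosis than in mitosis. The upper quartile of the arrays, 9.10 to 9.11 in mitotic, 8.93 to 8.98 in meiotic and 8.28 to 8.50 in post-meiotic samples, was not level despite the authors' quantile normalization. Changes of all probe sets therefore depended on the scaling. Calls of a higher level made up 57.7% of calls in post-meiosis against meiosis as deposited, 43.0% with arrays centred on their medians, 50.8% after cyclic loess and 80.7% with arrays shifted to a common 75th percentile. In post-meiosis against mitosis the share was 62.7% as deposited, 57.4% centred, 50.3% after loess and 78.1% after the shift. In meiosis against mitosis it was 48.0%, 56.7%, 47.4% and 64.5% in the same order. The median change of all probe sets in the deposited values was 0.06 in meiosis against mitosis, 0.13 in post-meiosis against meiosis and 0.21 in post-meiosis against mitosis. With the common 75th percentile it was 0.22, 0.69 and 0.93.

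The first question was how the piRNA pathway genes changed between the phases. In meiosis 9 of the 10 genes were lower than in mitosis and squ was higher, all with an adjusted p under 0.05 by limma with Benjamini-Hochberg adjustment over all probe sets. Of all probe sets, 26.3% were called lower and 24.3% higher in that comparison. In post-meiosis all 10 were lower than in meiosis, where 27.8% of all probe sets were called lower and 37.8% higher. All 10 were also lower in post-meiosis than in mitosis, against 29.5% of all probe sets called lower and 49.6% higher. The median change of the 10 genes was -0.86 in meiosis against mitosis, -1.37 in post-meiosis against meiosis and -2.44 in post-meiosis against mitosis on the log2 scale. The 3 comparisons share arrays and are not independent of each other.

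Falls of at least 1 on the log2 scale were seen for 3 of the 10 genes in the earlier step, namely piwi, aub and AGO3, against 10.1% of all probe sets. In the later step there were 7 such falls, of aub, AGO3, spn-E, krimp, mael, armi and squ, against 15.0% of all probe sets. From mitosis to post-meiosis there were 8, with vas and squ the exceptions, against 20.2%. In each of the 3 comparisons the arrays of the 2 regions did not overlap for any of the 10 genes. In the direction of the 9 falls in meiosis such a separation was seen for 29.2% of all probe sets, and in that of the rise of squ for 35.3%. For falls it was seen for 28.3% in post-meiosis against meiosis, where rises reached 41.1%, and for 29.6% in post-meiosis against mitosis, where rises reached 51.1%. Since whole regions were hybridized, fewer cells of a type and less RNA per cell cannot be told apart.

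**Figure D1:**
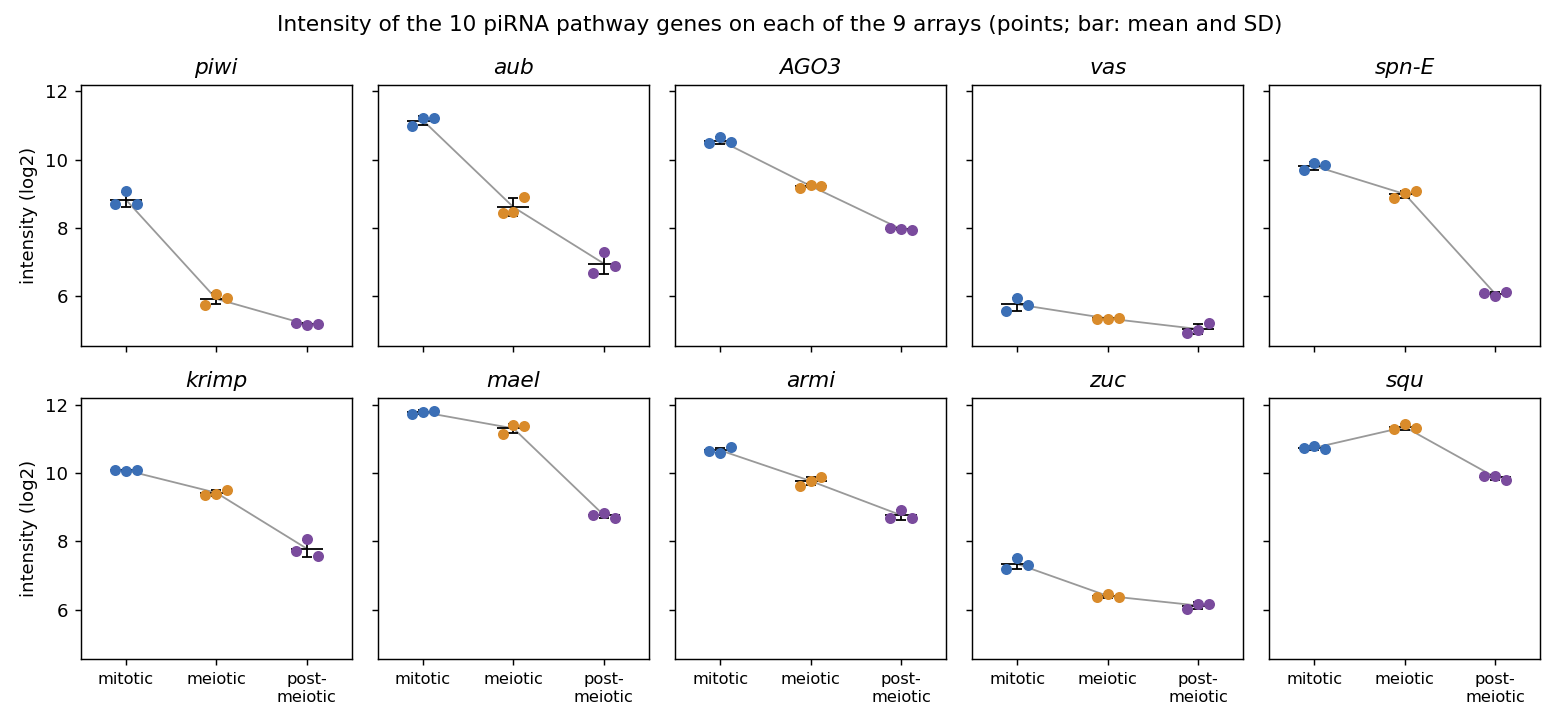
Log2 intensity (vertical axis) of the 10 piRNA pathway genes in the mitotic, meiotic and post-meiotic regions (horizontal axis), with a point for each of the 3 arrays of a region, a bar for their mean, whiskers for the SD and a grey line joining the means. The arrays of different regions do not overlap for any gene; squ alone is highest in meiosis, and piwi loses most of its signal between the mitotic and the meiotic region.

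The PIWI-clade Argonautes are the proteins that carry piRNAs. Piwi acts in the nucleus, where it silences transposons at transcription, in germ cells and in the somatic cells around them. The log2 intensity of piwi was 8.70, 9.09 and 8.70 on the mitotic arrays, 5.75, 6.07 and 5.95 on the meiotic arrays and 5.20, 5.15 and 5.18 on the post-meiotic arrays. The 3 mitotic arrays stood far above every other array, whereas the meiotic and post-meiotic arrays lay within 1 unit of each other. The change in meiosis against mitosis was -2.90 ± 0.115 (SE, adjusted p = 2e-09), so that the meiotic level was 13.4% of the mitotic one (95% interval 11.2% to 15.9%). In the later step the change was -0.75 ± 0.115 (SE, adjusted p = 7.2e-05), which left the post-meiotic level at 59.4% of the meiotic one. The post-meiotic mean of 5.18 was above that of only 21.4% of all probe sets. With arrays shifted to a common 75th percentile, the later change of piwi was -0.19 and did not pass the test (adjusted p = 0.14). Relative to the median of all probe sets it was -0.88 under both scalings. This equality is no check, since the shift moves all values of an array by the same amount. Piwi is known in the hub and cyst cells of the testis tip as well, and 6 of 9 listed markers of these cells were measured. Their summed intensity was 869 to 891 on mitotic, 658 to 686 on meiotic and 727 to 968 on post-meiotic arrays. Of the 6, 3 were lower and none higher in meiosis than in mitosis. These 3 differed in size, with changes of -1.76 for zfh1 (adjusted p = 2.2e-08), -0.29 for tj and -0.30 for eya. The step difference of zfh1 was 1.47 (adjusted p = 1.7e-05). In the later step 2 of the 6 were lower and 1 higher, namely hh, which rose by 2.85, so that the sum hides opposed changes. The part of these cells in the change of piwi was not tested.

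Aubergine, the Argonaute of the nuage that slices transposon transcripts and is needed to silence Stellate in testis, is encoded by aub. Its log2 intensity was 11.00, 11.22 and 11.22 in the mitotic region, 8.44, 8.48 and 8.91 in the meiotic region and 6.68, 7.29 and 6.90 in the post-meiotic region. In contrast to piwi, aub lost signal in large amounts at both steps. Its post-meiotic arrays varied most but stayed well below all meiotic arrays. Its change was -2.54 ± 0.155 in the earlier step (SE, adjusted p = 2.4e-08). In the later step aub fell by 1.65 ± 0.155 on the log2 scale (SE, adjusted p = 6.7e-07), to 31.8% of the meiotic level. The post-meiotic level was 5.48% of the mitotic one (95% interval 4.34% to 6.92%). This change of -4.19 was the largest between mitosis and post-meiosis among the 10 genes as deposited, but after cyclic loess it was -3.42, against -3.82 for piwi.

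AGO3, the partner of Aubergine in the reciprocal slicing that amplifies piRNAs, had log2 intensities of 10.49, 10.66 and 10.53 in the mitotic region, 9.18, 9.27 and 9.24 in the meiotic region and 7.99, 7.96 and 7.95 in the post-meiotic region. The arrays of a region lay close together, and the 3 regions were set apart by steps of similar size. The change was -1.33 ± 0.0774 in meiosis against mitosis (SE, adjusted p = 1.7e-08) and -1.26 in post-meiosis against meiosis (adjusted p = 8.9e-09). The post-meiotic level was 16.6% of the mitotic one.

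The changes of the 3 Argonautes were set against each other within arrays, in 6 tests by a two-sided exact permutation test of 3 arrays against 3, which cannot give a p below 0.1. In meiosis against mitosis the change of piwi minus that of AGO3 was -1.57 and that of aub minus that of AGO3 was -1.21 on the log2 scale, both with the smallest exact p of 0.1 (adjusted p = 0.15). Between piwi and aub the difference was -0.37 in that step (exact p = 0.2, adjusted p = 0.24). In post-meiosis against meiosis the change of piwi minus that of aub was 0.90 and minus that of AGO3 0.51 (exact p = 0.1 and adjusted p = 0.15 for both). The difference of aub from AGO3 in that step was -0.39 (exact p = 0.3, adjusted p = 0.3). No pair passed 0.05 in this design, and the later difference of piwi from AGO3 turned to -0.14 after cyclic loess.

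The next genes act in the nuage beside Aubergine and AGO3. The helicase Spindle-E, encoded by spn-E, is needed there for piRNA amplification. Its log2 intensity was 9.70, 9.89 and 9.86 in the mitotic region, 8.88, 9.03 and 9.07 in the meiotic region and 6.09, 6.00 and 6.12 in the post-meiotic region. Mitotic and meiotic arrays were separated by less than a unit, and the post-meiotic arrays lay more than 2 units below the lowest meiotic one. The change in meiosis against mitosis was -0.82 ± 0.0871 (SE, adjusted p = 2.9e-06) and that in post-meiosis against meiosis -2.92 (adjusted p = 1.3e-11). The meiotic region thus kept 56.6% of the mitotic level, whereas the post-meiotic region kept 13.2% of the meiotic level (95% interval 11.6% to 15.0%).

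Krimper, the Tudor-domain protein that brings Aubergine and AGO3 together, is encoded by krimp. On the mitotic arrays krimp was at 10.09, 10.07 and 10.08, on the meiotic arrays at 9.37, 9.39 and 9.52 and on the post-meiotic arrays at 7.72, 8.07 and 7.58. The mitotic arrays were nearly equal, and the post-meiotic arrays varied most. The change was -0.66 ± 0.111 in meiosis against mitosis (SE, adjusted p = 0.0002) and -1.63 in post-meiosis against meiosis (adjusted p = 2.5e-08). The post-meiotic level was 20.4% of the mitotic one.

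Maelstrom, which is found in the nuage and in the nucleus and is needed for silencing downstream of Piwi, is encoded by mael. Its probe set is of a kind that may also read related transcripts. The log2 intensity of mael was 11.72, 11.80 and 11.83 in the mitotic region, 11.15, 11.41 and 11.37 in the meiotic region and 8.76, 8.84 and 8.70 in the post-meiotic region. As for spn-E, the wide gap lay between the meiotic and the post-meiotic arrays. The meiotic level was still 72.0% of the mitotic one, a change of -0.47 ± 0.088 (SE, adjusted p = 0.00045). In post-meiosis mael fell by 2.54 on the log2 scale (adjusted p = 4.3e-11), to 17.2% of the meiotic level.

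The gene squ, which encodes the nuage protein Squash, a partner of Aubergine, went another way. Its log2 intensity was 10.73, 10.80 and 10.70 in the mitotic region, 11.29, 11.44 and 11.32 in the meiotic region and 9.92, 9.93 and 9.79 in the post-meiotic region. All 3 meiotic arrays were above all mitotic ones, and all 3 post-meiotic arrays were below both. In the deposited values only squ of the 10 genes rose in a step, by 0.61 ± 0.0802 in meiosis against mitosis (SE, adjusted p = 2.2e-05), which makes the meiotic level 152% of the mitotic one (95% interval 135% to 172%). The rise was followed by a change of -1.47 in post-meiosis against meiosis (adjusted p = 2.8e-09). The post-meiotic level was 55.0% of the mitotic one, a change of -0.86 that became -0.15 and no longer passed the test (adjusted p = 0.12) with arrays shifted to a common 75th percentile. Relative to the median of all probe sets it was -1.08 under both scalings, an equality that follows from the shift and is no check.

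Vasa is a DEAD-box helicase and a defining protein of nuage and germ cells. The probe set of vas was dim throughout, at 5.58, 5.96 and 5.75 in the mitotic region, 5.34, 5.34 and 5.37 in the meiotic region and 4.91, 5.00 and 5.21 in the post-meiotic region. Its mean was above that of 39.5% of probe sets on mitotic, 29.5% on meiotic and 18.5% on post-meiotic arrays. The change was -0.41 ± 0.106 in meiosis against mitosis (SE, adjusted p = 0.00507) and -0.31 in post-meiosis against meiosis (adjusted p = 0.0211). The second call was lost without the third meiotic array (adjusted p = 0.0585), the first post-meiotic array (adjusted p = 0.0612) or the second post-meiotic array (adjusted p = 0.0564). With arrays shifted to a common 75th percentile none of the 3 changes of vas passed the test. They were then -0.26 in meiosis against mitosis (adjusted p = 0.0922), 0.25 in post-meiosis against meiosis (adjusted p = 0.0809) and -0.01 in post-meiosis against mitosis (adjusted p = 0.946). Relative to the median of all probe sets they were -0.48, -0.44 and -0.94 under both scalings. Here too the equality follows from the shift and is no check. A further probe set that the annotation gives to both wwk and vas had means of 4.90 on mitotic, 4.92 on meiotic and 5.04 on post-meiotic arrays, and none of its changes passed the test (adjusted p from 0.38 to 0.92). In the RefSeq annotation vas starts at the same base as solo and spans vig. Which transcripts the dim probe set reads was not tested.

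The remaining pair of genes stands for the making of piRNAs from long precursors. Armitage, a helicase that carries precursors to the mitochondrial surface, is encoded by armi, which had log2 intensities of 10.65, 10.60 and 10.75 in the mitotic region, 9.63, 9.78 and 9.89 in the meiotic region and 8.69, 8.93 and 8.68 in the post-meiotic region. Its changes of -0.90 ± 0.0973 in meiosis against mitosis (SE, adjusted p = 3.6e-06) and -1.00 in post-meiosis against meiosis (adjusted p = 9.4e-07) left 53.6% of the mitotic level in meiosis and 49.9% of the meiotic level in post-meiosis.

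Zucchini, the endonuclease on mitochondria that cuts these precursors, is encoded by zuc, which had log2 intensities of 7.20, 7.52 and 7.30 in the mitotic region, 6.38, 6.46 and 6.36 in the meiotic region and 6.01, 6.17 and 6.18 in the post-meiotic region. The mitotic arrays stood apart from the rest, and the meiotic and post-meiotic arrays were separated by a narrow gap. The change was -0.94 ± 0.0944 in meiosis against mitosis (SE, adjusted p = 1.8e-06) and -0.28 in post-meiosis against meiosis (adjusted p = 0.0194). The later call of zuc was lost without the second meiotic array (adjusted p = 0.0724) or the first post-meiotic array (adjusted p = 0.0541). With arrays shifted to a common 75th percentile zuc turned to a rise of 0.28 in that step (adjusted p = 0.0329). Relative to the median of all probe sets the change was -0.41 under both scalings, which again follows from the shift and is no check.

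The second question was whether the change in the later step differed from that in the earlier one, tested for each gene as the difference between both changes. Of the 10 genes, 3 had the more negative change in the earlier step, 4 in the later step and 3 showed no called difference. The later change was less negative than the earlier one by 2.15 ± 0.198 for piwi (SE, adjusted p = 9.4e-07), by 0.88 ± 0.269 for aub (adjusted p = 0.0152) and by 0.66 ± 0.163 for zuc (adjusted p = 0.00443). Of all probe sets, 21.2% were called in this direction. The post-meiotic mean of piwi lay below the lower quartile of those arrays (5.26 to 5.38), so that its later change may be understated and its step difference overstated. The call of aub was lost without the first meiotic array (difference 0.72, adjusted p = 0.0872) or the second (0.76, adjusted p = 0.0804). The difference went the other way for 4 genes of nuage proteins, but not for aub, AGO3 or vas, whose proteins are also of the nuage. It was -2.10 ± 0.151 for spn-E (adjusted p = 9e-08), -2.08 for squ (adjusted p = 4.6e-08), -2.07 for mael (adjusted p = 1.2e-07) and -0.97 for krimp (adjusted p = 0.0008), in a direction called for 25.7% of all probe sets. For AGO3 the difference was 0.06 (95% interval -0.23 to 0.36, adjusted p = 0.747), for vas 0.10 (-0.30 to 0.50, adjusted p = 0.706) and for armi -0.10 (-0.47 to 0.26, adjusted p = 0.676). The difference of AGO3 passed the test in the same direction after cyclic loess (0.35, adjusted p = 0.0441) and after the shift to a common 75th percentile (0.47, adjusted p = 0.0207), but was -0.15 with centred arrays (adjusted p = 0.427).

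**Figure D2:**
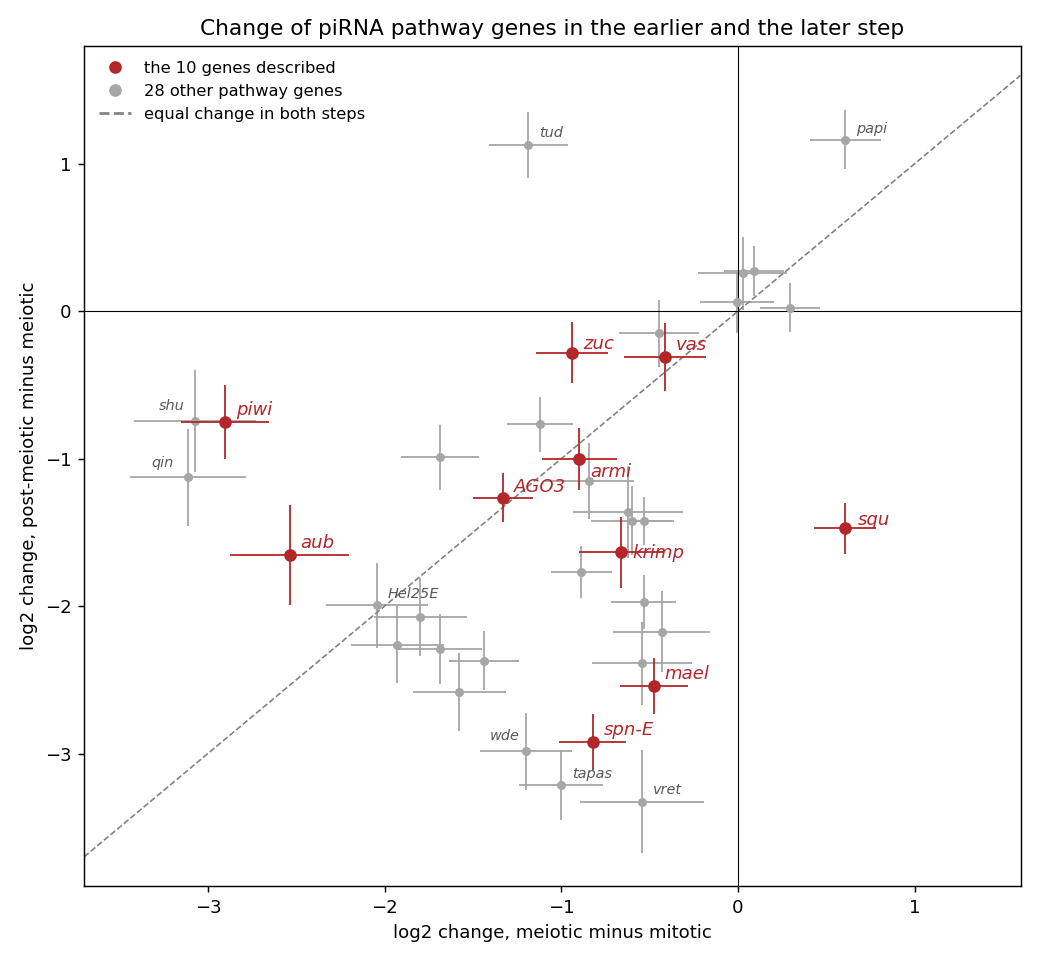
Log2 change in meiosis against mitosis (horizontal axis) and in post-meiosis against meiosis (vertical axis) for the 10 piRNA pathway genes (red) and 28 other genes of the pathway (grey), with 95% intervals. Genes on the dashed line changed equally in both steps; piwi, at -2.90 and -0.75, lies far to its left, spn-E, at -0.82 and -2.92, and mael far below it, and squ is the red point to the right of 0.

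Markers of a somatic tissue also moved in both steps. Of the 7 measured markers of sheath muscle, of 10 listed, 6 were higher in post-meiosis than in meiosis and all 7 higher than in mitosis, with a summed intensity of 1163 to 1402 on mitotic, 1478 to 1533 on meiotic and 3967 to 4739 on post-meiotic arrays. All 9 spermatocyte markers were lower in post-meiosis than in meiosis, with a median change of -1.72, against a median of -1.37 for the piRNA pathway genes. In the earlier step 5 of the sheath muscle markers were lower and 1 was higher in meiosis than in mitosis, with a median change of -0.94. That one is sls, the brightest of the list in both regions, which rose by 0.95. The mean of every other measured marker of the list was lower in meiosis, so that the higher summed intensity there came from sls. The part of these cell types in the falls of either step was not tested.

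Beside the 10 genes, 30 further genes of the pathway were listed by role, and 28 of them, all but arx and egg, had a named probe set. In meiosis against mitosis 23 of the 28 were lower, 2 higher and 3 not called. The shares of all probe sets called lower and higher were 26.3% and 24.3%. In post-meiosis against meiosis 21 of the 28 were lower, 3 higher and 4 not called, against 27.8% of all probe sets lower and 37.8% higher. In post-meiosis against mitosis 22 were lower, 4 higher and 2 not called, against 29.5% lower and 49.6% higher. The median changes of the 28 genes, -0.86, -1.42 and -2.63, were close to those of the 10 genes. The difference between steps was called in 18, and in 13 of these the later change was the more negative one. Among all probe sets 25.7% were called in that direction and 21.2% in the other.

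The first group transcribes piRNA clusters and exports their transcripts, with rhi, del, cuff, moon, boot and Hel25E. Of these 6, 5 were lower in meiosis than in mitosis and moon was not called. In post-meiosis against meiosis 4 were lower, del was not called and moon was higher by 0.27 ± 0.0781 (SE, adjusted p = 0.00818). The probe set of moon was dim, above only 31.3% of probe sets in post-meiosis, and its rise was lost with centred arrays (0.13, adjusted p = 0.194) and after cyclic loess (0.03, adjusted p = 0.796). The RNA helicase gene Hel25E, also known as UAP56, had the largest fall of the group in the earlier step, by 2.04 ± 0.132 on the log2 scale (SE, adjusted p = 3.7e-08). It fell by 1.99 in the later step (adjusted p = 2e-08). Its probe set is of a kind that may also read related transcripts.

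The second group makes and loads piRNAs in the nuage and on mitochondria, and 13 of its 16 genes were lower in meiosis than in mitosis and 12 lower in post-meiosis than in meiosis. Its early falls were led by qin, a Tudor-domain protein that keeps Aubergine and AGO3 in partnership, with values of 9.29, 9.45 and 9.21 in the mitotic region, 5.88, 6.21 and 6.52 in the meiotic region and 5.10, 5.28 and 4.84 in the post-meiotic region. The co-chaperone gene shu, needed to load piRNAs onto PIWI proteins, followed with 9.97, 10.38 and 10.34 in the mitotic region, 6.82, 7.22 and 7.42 in the meiotic region and 6.50, 6.17 and 6.56 in the post-meiotic region. Both had the early pattern of piwi. The post-meiotic mean of qin, 5.07, was above that of only 19.2% of all probe sets, so that its later change may be understated. In meiosis against mitosis qin changed by -3.11 ± 0.15 (SE, adjusted p = 5.5e-09) and shu by -3.07 ± 0.159 (adjusted p = 7.9e-09). The changes in post-meiosis against meiosis were -1.13 for qin (adjusted p = 2.1e-05) and -0.74 for shu (adjusted p = 0.00116). That of shu did not pass the test after cyclic loess (-0.35, adjusted p = 0.089) or with a common 75th percentile (-0.18, adjusted p = 0.282). A second, dimmer probe set of qin changed by -1.27 in the earlier step (adjusted p = 9.3e-07) and by -0.22 in the later one (adjusted p = 0.12).

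The late falls of the second group were led by the Tudor-domain genes vret and tapas. The values of vret were 10.35, 10.53 and 10.41 in the mitotic region, 9.67, 10.08 and 9.91 in the meiotic region and 6.20, 6.95 and 6.53 in the post-meiotic region. Its change was -0.54 ± 0.161 in meiosis against mitosis (SE, adjusted p = 0.0123) and -3.33 in post-meiosis against meiosis (adjusted p = 8.7e-10). The earlier call of vret was lost without the second mitotic array (adjusted p = 0.0507) or the first meiotic array (adjusted p = 0.0624), after cyclic loess (-0.29, adjusted p = 0.201) and with a common 75th percentile (-0.39, adjusted p = 0.0576). The brighter probe set of tapas changed by -1.00 ± 0.11 in meiosis against mitosis (SE, adjusted p = 4.1e-06) and by -3.21 in post-meiosis against meiosis (adjusted p = 3.7e-11). Its second probe set had means of 8.33 on mitotic, 7.17 on meiotic and 9.22 on post-meiotic arrays and rose by 2.05 in the later step (adjusted p = 1.1e-09), so that the direction of tapas there depends on the probe set.

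Named after their values were seen, as moon was, 3 genes of the second group rose in a step. The Tudor-domain gene papi, whose product sits on mitochondria and binds PIWI proteins, had values of 10.28, 10.32 and 10.13 in the mitotic region, 10.94, 10.83 and 10.78 in the meiotic region and 12.17, 11.94 and 11.94 in the post-meiotic region. It rose by 0.61 ± 0.0921 in meiosis against mitosis (SE, adjusted p = 8e-05) and by 1.16 in post-meiosis against meiosis (adjusted p = 1.2e-07). The probe set of papi, as that of mael, is of a kind that may also read related transcripts. The values of tud, the gene of the founding Tudor protein, were 10.22, 10.24 and 10.35 in the mitotic region, 8.94, 9.14 and 9.16 in the meiotic region and 10.42, 10.06 and 10.15 in the post-meiotic region. Thus tud was lowest in meiosis, with a change of -1.19 ± 0.103 against mitosis (SE, adjusted p = 4.7e-07) and of 1.13 in post-meiosis against meiosis (adjusted p = 5.2e-07). Its post-meiotic arrays overlapped the mitotic ones (change -0.06, adjusted p = 0.623), but the change was 0.46 after cyclic loess (adjusted p = 0.00129) and 0.66 with a common 75th percentile (adjusted p = 1.7e-05). The mitochondrial acyltransferase gene mino was higher in meiosis than in mitosis by 0.30 ± 0.0777 (SE, adjusted p = 0.00581) and was not called after cyclic loess (0.17, adjusted p = 0.0982).

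The third group acts with Piwi in nuclear silencing, with Panx, nxf2, wde, Su(var)2-10, sov and the gene of heterochromatin protein HP1a. In meiosis against mitosis and in post-meiosis against meiosis 5 of the 6 were lower and Su(var)2-10 was not called. A second, dimmer probe set of Su(var)2-10 was lower in meiosis than in mitosis (change -0.98, adjusted p = 1.2e-06) and was not called in post-meiosis against meiosis (0.17, adjusted p = 0.12). The largest later fall was that of wde, a cofactor of the histone methyltransferase Eggless. Its values were 10.09, 10.33 and 10.29 in the mitotic region, 8.78, 9.17 and 9.17 in the meiotic region and 5.95, 6.22 and 6.00 in the post-meiotic region. The change was -1.20 ± 0.12 in meiosis against mitosis (SE, adjusted p = 1.7e-06) and -2.98 in post-meiosis against meiosis (adjusted p = 1.5e-10). In all, 5 of the 6 had a later change that was called more negative than the earlier one. Of all probe sets, 25.7% were called in that direction. The gene piwi had the reverse, but its signal was dim in post-meiosis, so that its step difference may be overstated.

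**Figure D3:**
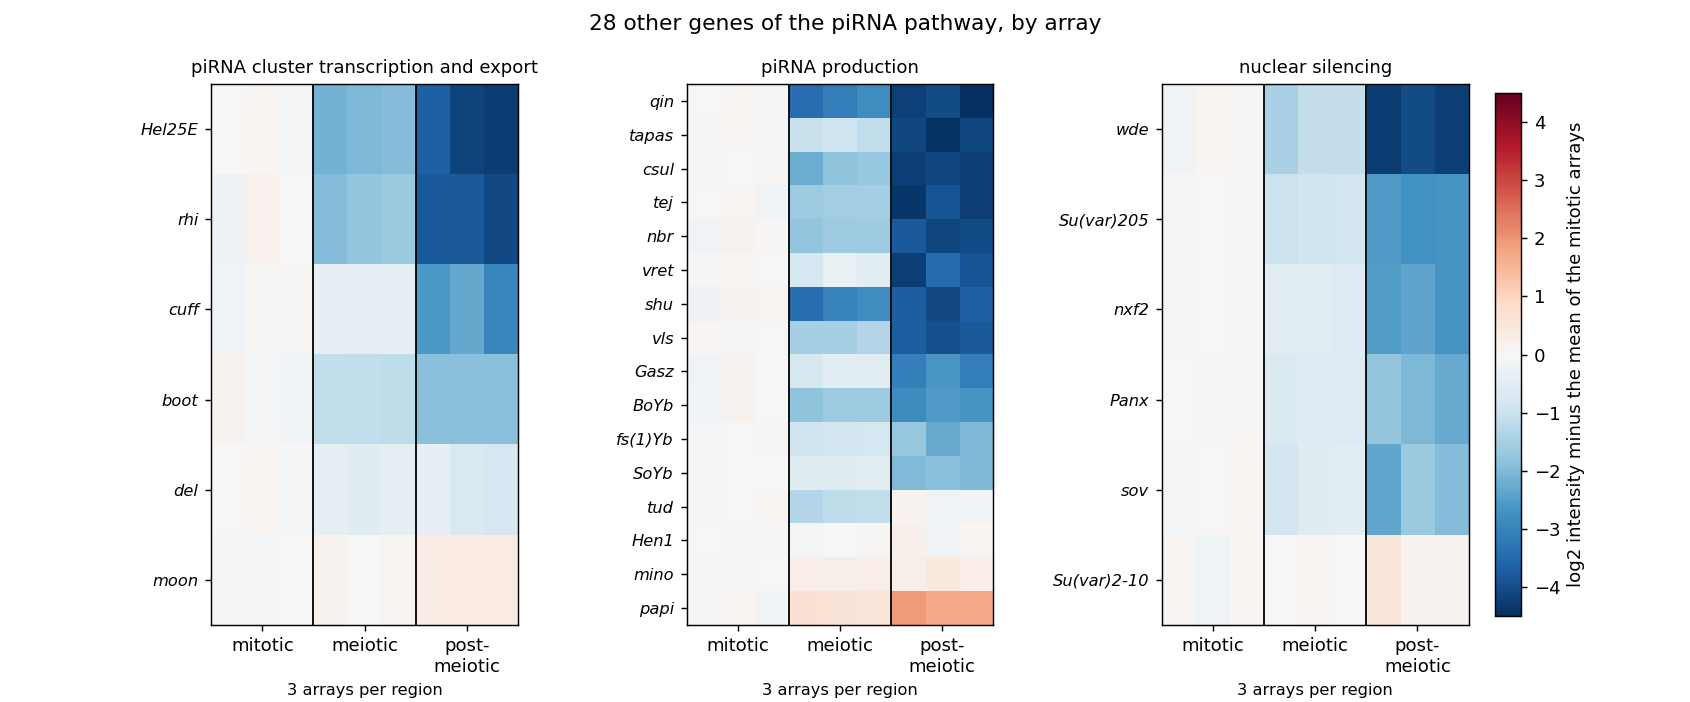
Log2 intensity of 28 other piRNA pathway genes on each of the 9 arrays (columns, 3 for each region, in the order mitotic, meiotic, post-meiotic), minus the mean of the mitotic arrays (colour scale in log2 units, blue for lower and red for higher), in 3 groups by role. Most rows are blue in the post-meiotic columns; papi is red in both later regions, and tud is bluest in meiosis.

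The profiles were also compared by the root mean square difference over the 9 arrays, in log2 units, after each probe set was centred on its own mean. This is a description of likeness in these 3 regions only. The centred profiles were not scaled to an equal spread, so that probe sets with small changes can lie close together for that reason alone. The genes nearest to piwi were Sf3b3 (0.156), which encodes a splicing factor subunit, zpg (0.164), which encodes the gap junction protein of early germ cells, and shu (0.182). Thus zpg, a spermatogonial marker, and shu, a partner of the PIWI proteins, were among the 3 nearest of all named genes. The step difference of zpg was 1.92. That of the other measured spermatogonial markers, bam and bgcn, was -0.34 in both and not called. Those nearest to aub were Rcd-1r (0.128), dUTPase (0.173), whose product keeps uracil out of DNA, and pths (0.227).

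The other 8 genes had nearer neighbours. SmD2, of the spliceosome core, was within 0.048 of AGO3. PCID2 was within 0.057 and the Polycomb gene Sce within 0.092 of spn-E, and the histone variant gene His2Av was within 0.076 of krimp. HIPP1 was within 0.083 of mael, Wdfy2 within 0.081 of armi, TBC1d7 within 0.067 of zuc, and Sap47, itself dim, within 0.081 of vas. The profile of squ with its meiotic peak was closest to those of rib (0.072), milt (0.085) and Pex3 (0.086), which encodes a peroxisome biogenesis factor. Among the 10 genes themselves, the closest pairs were vas with zuc (0.249), krimp with armi (0.271), AGO3 with krimp (0.305), AGO3 with armi (0.307) and spn-E with mael (0.307).

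In the RefSeq annotation of the Release 6 assembly piwi, aub, vas, zuc and squ lie on chromosome arm 2L, krimp on 2R, mael, armi and AGO3 on 3L and spn-E on 3R, so that none is X-linked. The neighbours piwi and aub have 2 protein-coding genes between them, CG12253 and TTLL4A. The step difference was 2.15 in piwi and 0.88 in aub. No test compared these values.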

How the data were processed

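The deposited values are log2 intensities per probe set, which the authors made from 1-colour Affymetrix Drosophila Genome 2.0 arrays by RMA background correction and quantile normalization in R, version not stated, without pooling replicates. Of 18952 probe sets, 183 Affymetrix controls were left out. The annotation gave 1 symbol to 13647 of the rest, several to 402 and none to 4720; genes were read from probe sets with 1 symbol.

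The 3 regions were fitted together over 9 arrays in R 4.3.3 with the lmFit and eBayes functions of limma 3.58.1. Tests were two-sided, with Benjamini-Hochberg adjustment across the 18769 probe sets and a threshold of 0.05. Tables and exact permutation tests were made in Python 3.11.15 (pandas 2.3.3, numpy 2.4.6) and figures with matplotlib 3.10.9. The fit was tested on simulated data. The number of arrays limits the precision.

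Members and gene lists were chosen with earlier results of these data known. Named genes were the members, listed pathway genes with the 3 largest called changes in each step, and the 3 nearest profiles of each member, of which some are given. Alternatives were centred arrays, cyclic loess, a filter on dim probe sets, no probe sets open to cross-hybridization, the next brightest probe set, a trended robust prior, only the regions compared, the replicate number as a block and each array left out. The shift to a common 75th percentile was chosen after seeing the data. Promoter and protein sequences were not used here.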

Additional observations from a re-analysis of the deposited data

How the results depend on the processing

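Of 662 values of the 10 genes recomputed under alternatives, 641 kept their direction and side of the threshold. For the other pathway genes 532 of 546 did. These shares do not measure robustness, since many alternatives could not alter the direction of a change. Filters, the trended robust prior, the fit of only the regions compared and the replicate block leave each fitted change unaltered. Leaving out an array of a region that is not compared does so too. In the later step vas and zuc turned to 0.25 and 0.28 with a common 75th percentile, a scaling added after seeing the data. The step difference turned to -0.15 for AGO3 and -0.11 for vas with centred arrays, to -0.036 for vas and 0.23 for armi after cyclic loess, to 0.30 for armi with a common 75th percentile and, over the fits without 1 array, ran from -0.24 to 0.021 for armi, positive without the third meiotic array. None of these 3 differences was called in the deposited values. The change of tud between post-meiosis and mitosis turned to 0.46 after loess and 0.66 with the common percentile and ran from -0.16 to 0.019 over the fits without 1 array, positive without the second post-meiotic array. The later difference of piwi from AGO3 turned to -0.14 after loess. The cause was not tested. None of the 10 genes has a second probe set of its own to try. Of the 10 genes, 1 was higher in post-meiosis than in meiosis with the common percentile, namely zuc. With that scaling piwi and vas were not called in this step, so that not all 10 genes were lower. Against mitosis vas and squ were not called lower in post-meiosis, and vas was not called in meiosis. Without probe sets open to cross-hybridization, which leaves out that of papi, 1 of 25 other pathway genes was higher in meiosis. After loess 1 of the other pathway genes was higher in meiosis. In the later step 6 were higher after loess and 7 with the common percentile, and the step difference was higher in 8 and 10. Over all probe sets, 4565 were higher in post-meiosis than in meiosis with centred arrays, 4359 of 11135 after a filter at a mean of 6, and 13892 with the common percentile, where 3318 were lower. In post-meiosis against mitosis 5873 were higher after loess and 4973 after the filter. With the common percentile 7596 were higher in meiosis than in mitosis and 9246 in the step difference. Whether the replicate numbers pair the arrays was not settled. Deviations of arrays with 1 number correlated between -0.0862 and 0.36, and those with unlike numbers between -0.223 and 0.151. The value of 0.36 was that of the first mitotic and the first meiotic array. The best match had the same number in 6 of 18 cases. A fit with the replicate number as a block again called 9 of the 10 genes lower in meiosis and 10 in post-meiosis. Over all probe sets it called 4961 lower and 4609 higher in meiosis, against 4943 and 4566 without it. In post-meiosis against meiosis it called 5242 lower and 7137 higher, against 5212 and 7100 without it. It changed no call of the 10 genes. Dim signals of piwi, vas and qin in post-meiosis limit their folds and step differences.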
